A study of Arabidopsis thaliana with 12 samples.

Results

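The 45 array features described here were dim in wild type (WT) and of at least moderate intensity in the flu mutant of Arabidopsis thaliana. They were chosen by 2 thresholds on the deposited intensities: the mean of the 6 WT arrays was below 0.5 and the mean of the 6 flu arrays was at least 1. Of all 3439 features, 48 met both thresholds, and 3 of these, for genes among 8 left out beforehand, were set aside. A feature is 1 spot identity on the array. Of the members, 6 could be named, because the platform annotation lists 1 gene for each: AT4G35660, AT4G31930, AT1G51080, AT5G11650, AT5G63290 and AT2G28540. Of the remaining 39 members, 15 are listed with several genes and 24 are not listed, and all 39 stay unnamed. These shares, 13.3%, 33.3% and 53.3%, compare with 20.1%, 25.3% and 54.6% over all features.

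The arrays measured total RNA of the flu mutant and of WT, both of ecotype Landsberg, with 6 arrays in each group. Plants of both groups were collected 30 min after light was restored at the end of a 12 h dark period, and the labels give no tissue, age or allele. The mutant carries a defect in the FLU gene. The sources used here do not say which arrays come from separate plants. Arrays 1 and 2, 3 and 4, and 5 and 6 of each group resemble each other, so errors below are over 3 means of array pairs.

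The FLU protein sits in the plastid and holds back the synthesis of the chlorophyll precursor 5-aminolevulinic acid in darkness. Without it, protochlorophyllide builds up at night, and when light returns this free pigment passes energy to oxygen and forms singlet oxygen inside the plastid. The flu mutant is known for nuclear transcripts that respond within minutes of that light. A transcript that is dim in WT and higher in flu is therefore a pattern of interest in this experiment. Whether any member responds to singlet oxygen was not tested. All arrays come from 1 time, so whether a member already differed in the dark cannot be told. In RNA from whole samples, a difference in the share of cells that hold a transcript and a difference in its amount per cell cannot be told apart.

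The scale and the arrays set limits. Deposited intensities run from 0 to 100, the array sums from 3247 to 3350, and the array medians from 0.443 to 0.491 in WT and from 0.426 to 0.442 in flu. Of 5 green-tissue genes, all with a feature of their own, LHB1B2 and PSBW, for an antenna protein and a photosystem II subunit, stood at 17.5 and 16.8 in WT and 18.4 and 20.4 in flu, above 99% of features in both groups. PSBY, SBPASE and PRK stood at 1.36, 0.522 and 0.916 in WT and at 1.42, 0.593 and 0.503 in flu. Both root markers sought, AT3G09260 and AT5G43350, have no feature of their own among those analysed. Of 11 genes known from the early response to singlet oxygen, such as BAP1 and ZAT12, 0 have a feature of their own and 1 shares a feature with other genes, so none is described here.

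Because the rule used the difference between flu and WT, that difference is given for the members as a description, with no test. Of the 1790 features with a WT mean below 0.5, which is 52.0% of all features, 2.68% reached a mean of 1 in flu. The median flu mean of these dim features was 0.260, below their median WT mean of 0.301. The opposite pattern, a WT mean of at least 1 and a flu mean below 0.5, was met by 31 features.

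Dim in WT did not mean at the bottom of the scale. The members' WT means lay between 0.218 and 0.496, with a median of 0.406, which placed them between the 14.5th and the 51.6th percentile of all WT means. None was 0 on any WT array, and after quantile normalisation 14 of the 45 were above the 25th percentile of all values on all 6 WT arrays. In flu, their means lay between 1.001 and 8.95, with a median of 1.21, between the 84.7th and the 99.0th percentile. Most stood just above the threshold, with 25 of the 45 below 1.25 and 3 at 2 or more. The ratio of the flu mean to the WT mean ran from 2.20 to 23.0 with a median of 3.32. It was under 3 for 16 members, 3 to 4 for 18 and at least 4 for 11.

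**Figure D1:**
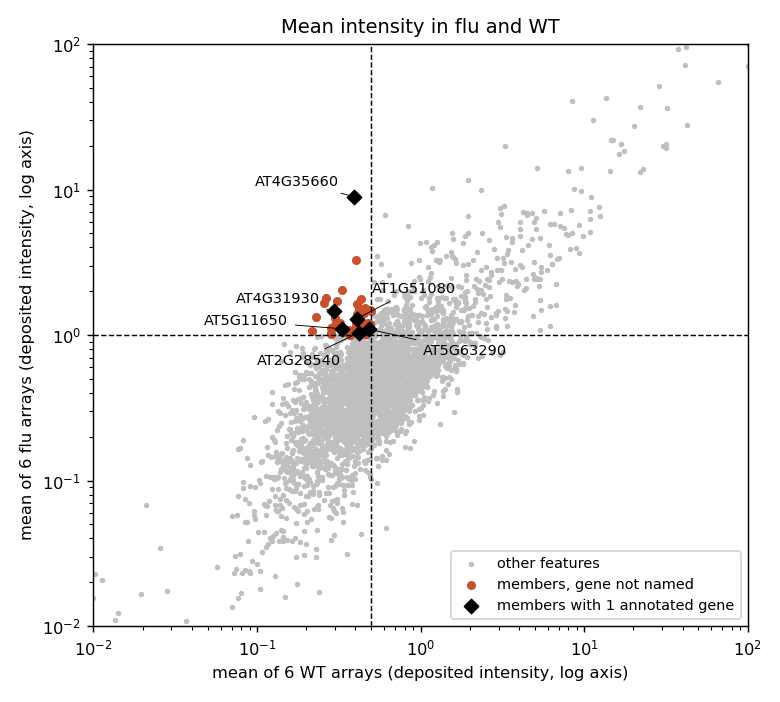
Mean deposited intensity of each feature over the 6 WT arrays (horizontal, log axis) and the 6 flu arrays (vertical, log axis), with dashed lines at the thresholds of 0.5 and 1. The 147 features with a mean at or below 0.01 in either group, and the 3 set aside, are not drawn. AT4G35660, at 0.390 in WT and 8.95 in flu, stands apart from the other 44 members.

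The choice rested on means, and single arrays crossed the thresholds. For 24 members all 6 flu arrays were at least 1, for 16 all 6 WT arrays were below 0.5, and for 7 both held. All 6 flu arrays lay above all 6 WT arrays for 43 of the 45. Over all features, 12.5% had that order. The rule used this contrast, so nothing is read from the count. The 2 exceptions were AT5G63290 and 1 unlisted feature, number 3711, whose flu arrays ran from 0.0833 to 2.82 and whose WT arrays ran from 0.0530 to 0.594. When arrays with the same number were set against each other, flu was above WT in each of the 6 pairs for all 45 members, against 19.7% of all features. The rule favours this order too, so nothing is read from it. The labels do not say that arrays with the same number belong together, so comparisons by number only describe the values.

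**Figure D2:**
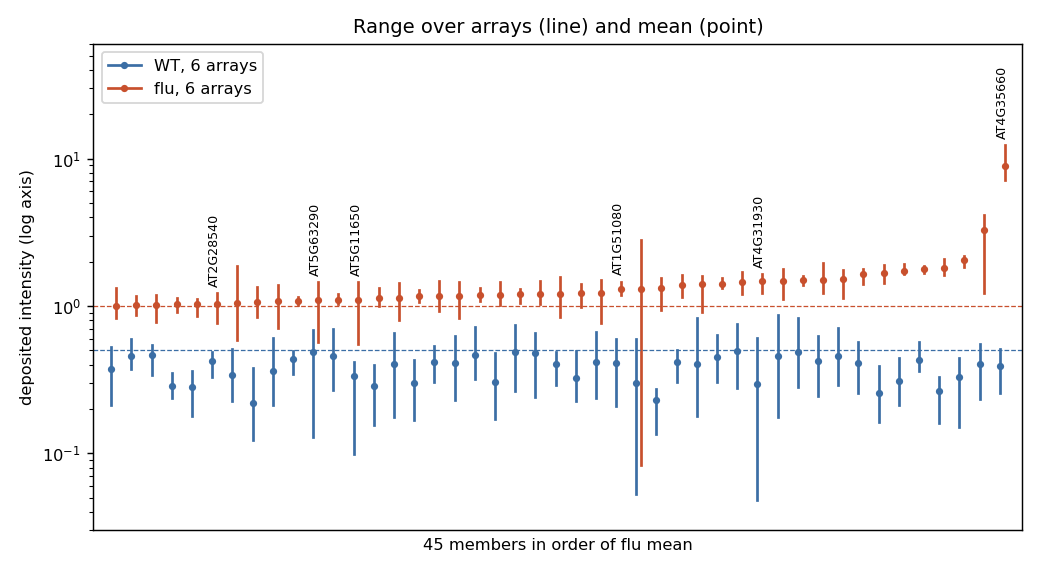
Deposited intensity (vertical, log axis) of the 45 members in order of flu mean. Each line spans the lowest to the highest of 6 arrays and each point is their mean, with WT in blue and flu in red and dashed lines at 0.5 and 1. The WT and flu lines overlap for AT5G63290 and for 1 unnamed feature whose flu line reaches down to 0.0833.

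AT4G35660, like the other named members, is a protein-coding gene with no symbol in the gene table. On flu arrays 1 to 6 it stood at 12.4, 11.4, 7.22, 7.26, 7.72 and 7.66, and on WT arrays 1 to 6 at 0.498, 0.323, 0.512, 0.487, 0.257 and 0.262. The lowest flu array was far above the highest WT array, and flu arrays 1 and 2 were higher than the other 4. In flu the mean was 8.95 ± 2.58 and in WT 0.390 ± 0.121 (SD over n = 3 pair means). Its flu mean was the 35th highest of all 3439 features, while its WT mean was at the 38.5th percentile. After quantile normalisation, with values below the 25th percentile (0.25) raised to it, the log2 difference was 4.64 (SE 0.31). Within same-numbered arrays the ratio of flu to WT ran from 14.1 to 35.2.

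No other member came near that level in flu. The next was an unnamed feature listed with several genes, number 750, at 1.23 on flu array 1 and 3.17 to 4.16 on the other 5 flu arrays (mean 3.27), and 0.235 to 0.552 in WT. Its ratio of means was 8.10, and flu array 1 was the low one. Among the 39 unnamed members the ratio ran from 2.20 to 8.10 with a median of 3.34.

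AT4G31930 belongs to the mitochondrial glycoprotein family, relatives of the acidic matrix protein Mam33 of yeast and p32 of human. Its flu arrays 1 to 6 stood at 1.48, 1.22, 1.65, 1.29, 1.65 and 1.53, and its WT arrays at 0.303, 0.188, 0.605, 0.543, 0.0483 and 0.0866. Flu arrays lay close together, whereas the WT pairs stood far apart, with arrays 3 and 4 high and arrays 5 and 6 near 0. In flu the mean was 1.47 ± 0.119 and in WT 0.296 ± 0.257 (SD over n = 3 pair means), and the log2 difference was 2.19 (SE 0.36). Since 3 of its 6 WT arrays were raised to the floor, this difference depends on where the floor was set. Ratios within same-numbered arrays ran from 2.38 to 34.1, and the wide span follows the WT values.

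AT5G63290 codes for a radical SAM protein related to the HemN and HemW proteins of bacteria, a family that includes coproporphyrinogen oxidases of tetrapyrrole synthesis, the pathway in which FLU acts. Its flu arrays 1 to 6 stood at 0.574, 0.573, 1.40, 1.46, 1.31 and 1.25, and its WT arrays at 0.129, 0.210, 0.683, 0.669, 0.599 and 0.619. Arrays 1 and 2 were the lowest in both genotypes, and flu arrays 1 and 2 fell below WT arrays 3 to 6, so the groups overlapped. In flu the mean was 1.10 ± 0.458 and in WT 0.485 ± 0.275 (SD over n = 3 pair means). The log2 difference of 1.21 had an SE of 0.61, the largest SE among the named members. This SE does not match arrays by number, so it includes the shift of arrays 1 and 2 seen in both genotypes. Within same-numbered arrays the ratio was 2.02 to 4.45 with a median of 2.19.

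AT5G11650 codes for a protein of the alpha/beta-hydrolase superfamily, which holds many lipases and esterases. Its flu arrays 1 to 6 stood at 1.45, 0.555, 1.27, 1.10, 1.09 and 1.16, and its WT arrays at 0.370, 0.0989, 0.371, 0.348, 0.389 and 0.416. Array 2 was the lowest in both genotypes and lay apart from array 1, which it otherwise resembles. The groups did not overlap. In flu the mean was 1.10 ± 0.0909 and in WT 0.332 ± 0.0873 (SD over n = 3 pair means), and the log2 difference was 1.71 (SE 0.17). Over the 6 single flu arrays the SD was 27.3% of the mean. Averaging arrays 1 and 2 hides part of that spread, so the SE is small beside it.

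AT2G28540 codes for a protein with an RNA recognition motif. Its flu arrays 1 to 6 stood at 1.13, 1.09, 1.12, 1.23, 0.899 and 0.761, and its WT arrays at 0.359, 0.412, 0.486, 0.478, 0.330 and 0.460. The groups did not overlap, and flu arrays 5 and 6 were the lowest of flu. In flu the mean was 1.04 ± 0.184 and in WT 0.421 ± 0.0530 (SD over n = 3 pair means), and the log2 difference was 1.41 (SE 0.17).

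AT1G51080 had the most even flu values among the named members. Its flu arrays 1 to 6 stood at 1.40, 1.32, 1.22, 1.47, 1.21 and 1.18, a coefficient of variation (CV, the SD over the mean) of 8.89%. Its WT arrays stood at 0.439, 0.478, 0.488, 0.598, 0.210 and 0.241, with arrays 5 and 6 low. In flu the mean was 1.30 ± 0.0908 and in WT 0.409 ± 0.165 (SD over n = 3 pair means), and the log2 difference was 1.79 (SE 0.32). The groups did not overlap.

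**Figure D3:**
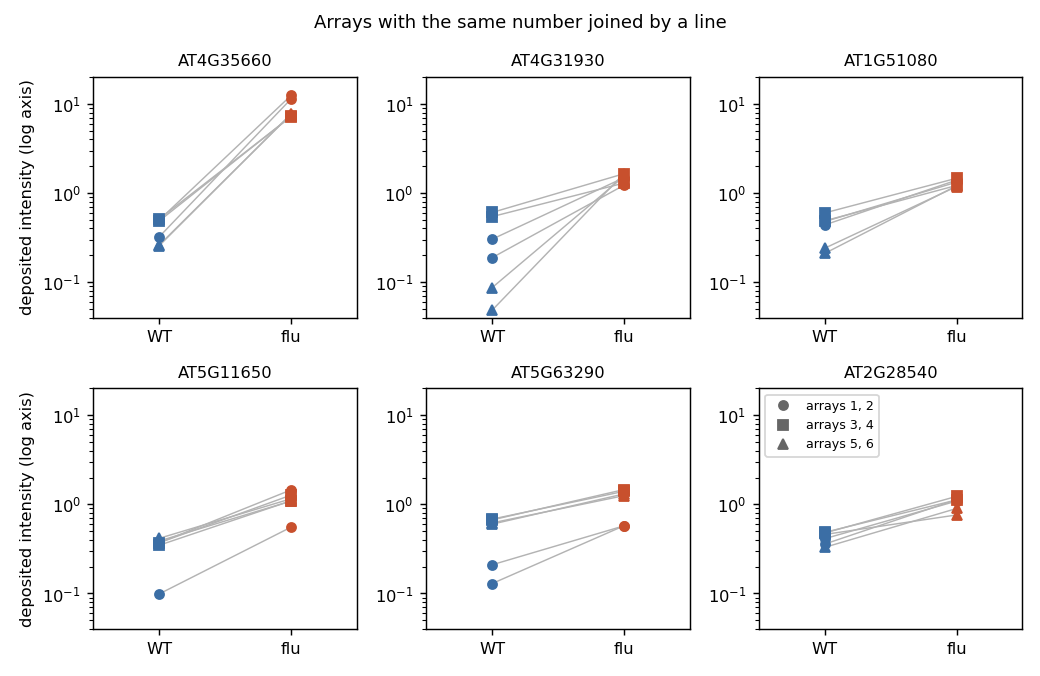
Deposited intensity (vertical, log axis) of the 6 named members on each WT array (blue) and flu array (red), with arrays of the same number joined by a line and marker shapes for arrays 1 and 2, 3 and 4, and 5 and 6. All 36 lines slope upward. In AT5G63290 arrays 1 and 2 are low in both genotypes, and in AT5G11650 array 2 is.

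Near the thresholds, named genes differed little across the line. AT2G28540, AT5G63290 and AT5G11650, with flu means of 1.04, 1.10 and 1.10, were just inside the flu threshold. AT2G32470, AT5G55580 and AT2G39100, with flu means of 0.993, 0.934 and 0.929 and WT means of 0.294, 0.426 and 0.496, were just outside. On the WT side AT5G63290, AT2G28540 and AT1G51080 were inside at 0.485, 0.421 and 0.409. AT3G18870, AT3G06870 and AT5G35100 were outside at 0.544, 0.563 and 0.565, with flu means of 1.25, 1.77 and 1.10.

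The members varied among arrays as a set as well as singly. Their CV over the 6 flu arrays had a median of 13.6% and ran from 4.66% to 80.8%. The other 449 features with a flu mean from 1 to the members' highest had a median CV of 12.0%. In flu, arrays of a pair differed by a median of 0.13 on the log2 scale (values below the floor raised to it) and pair means by 0.23. Feature 3711 was the most uneven, and feature 1213, also unlisted, stood at 1.87 and 1.79 on flu arrays 1 and 2 and at 0.585 to 0.716 on the other 4.

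In WT, arrays 3 and 4 held the highest pair mean for 28 of the 45 members (62.2%), against 32.7% of all features. Summed over the members, WT arrays 3 and 4 stood at 20.4 and 21.0 and the other 4 WT arrays at 14.4 to 16.7. In flu the highest pair mean was in arrays 1 and 2 for 23 members (51.1%, against 42.6% of all features), in arrays 3 and 4 for 16 (35.6% against 29.7%) and in arrays 5 and 6 for 6 (13.3% against 27.7%). The flu sums ran from 63.7 to 73.3. Without AT4G35660 the sums were 55.9 to 61.0 in flu and 14.2 to 20.5 in WT. The groups thus did not overlap in their sums, which the choice of members fixes. Without WT arrays 3 and 4, 69 features met the rule in place of 45.

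Differences between flu and WT depended on the place of a feature in the numbering, and the members' values are given with this dependence. Feature numbers were divided into repeating blocks of 12 times 24 numbers, and the mean log2 difference of all features within 3 positions in the block was taken as a profile. The block length was found earlier on these same data. The 45 members stood at 39 different positions, from 61 to 255, a stretch that holds 68.0% of all features. The profile was above 0 at the positions of 42 of them, against 50.2% of all 3128 features that rose above the floor on any array. The profile is made from the contrast that the rule used. Features chosen for a higher level in flu are thus favoured where it is above 0, and no cause is read from that count. The 48 features that met the rule were also left out of the profile, a choice made after seeing the data. The profile was then still above 0 at the positions of 42 members. Its median at the members' positions was 0.42, or 0.32 with the 48 left out. Of the features dim in WT, the 3 set aside included, 3.85% met the flu threshold where the full profile was above 0, and 0.483% elsewhere. The sources used here do not say whether the place in the numbering is a place on the array. Its part in the members' differences was not tested.

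With the profile subtracted, the median of the members' log2 differences was 1.39 in place of 1.82 (1.21 to 4.64), with a range of 0.73 to 4.29, and 40 of the 45 were at 1 or more. AT4G35660 stood at 4.29, AT1G51080 at 1.48, AT5G11650 at 1.20, AT2G28540 at 0.97 and AT5G63290 at 0.86. AT4G31930 was the 1 named member at a position with a profile below 0, and its log2 difference was 2.56 in place of 2.19. The other 2 members at such positions, features 1213 and 4381, share 1 position and stood at 1.84 and 2.16.

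**Figure D4:**
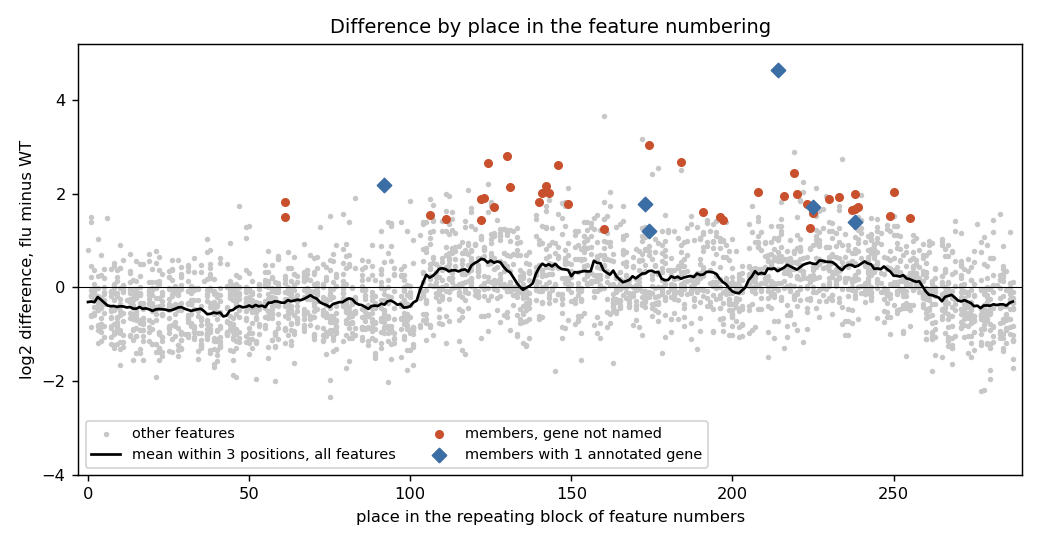
Log2 difference, flu minus WT, after quantile normalisation (vertical) against place in the repeating block of feature numbers (horizontal), for members and for other features above the floor on any array; the 3 features set aside are not drawn. The black line is the mean of all features within 3 positions. All but 3 members lie where that line is above 0, and AT4G31930, at position 92, is 1 of the 3.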

How the data were processed

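The authors' deposited table gives, for each feature and array, 1 intensity, taken here to be on a linear scale. The sources used here do not state that scale, the scanner, the background correction or the scaling. Members were chosen on these intensities as deposited, and levels are printed on that scale. Members, lists and tests were chosen with earlier results of these data known.

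For log2 differences, arrays were quantile normalised, low values were raised to a floor at the 25th percentile (0.25), log2 was taken, and arrays 1 and 2, 3 and 4, and 5 and 6 were averaged. The rule used the contrast, so no test was run. SEs are over 3 pair means per group, without matching of array numbers between the groups. They measure only the spread between arrays, which may be technical, and the number of arrays limits the precision. The floor compresses differences of dim features. All named members but AT2G28540 had WT arrays at the floor. With the floor at the 40th and the 10th percentile, AT5G63290 stood at 1.03 and 1.45 and AT5G11650 at 1.56 and 1.89. At the same floors AT1G51080 stood at 1.61 and 1.88, AT4G35660 at 4.42 and 4.65 and AT4G31930 at 1.87 and 2.64.

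Gene names come from the platform annotation in GEO, of which parts may be outdated, and were looked up in the TAIR10.1 gene table. All 6 matched. Every member with 1 listed gene is named. A planned grouping by description words was not made, because the gene table holds no gene descriptions. The roles given above for named members are background knowledge and come from neither source. The table was processed with Python 3.11.15, pandas 2.3.3 and numpy 2.4.6. The choice of members, the log2 difference and the profile were tested on simulated data. The planted changes were larger than those of most members, arrays did not resemble each other in pairs, and the profile was planted separately. That test therefore does not cover the SEs, members near the thresholds or the subtraction of the profile. Alternatives were other scalings, floors and thresholds, leaving out arrays, and subtracting the profile by feature number.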

Additional observations from a re-analysis of the deposited data

Results flagged for a closer look

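In WT, AT5G11650 stood at 0.0989 on array 2, far below the other 5 WT arrays, which lay between 0.348 and 0.416. The gap to the nearest array was 0.786 of the group's whole range, above the critical value of 0.625 for 6 samples. It was the only 1 of 12 gene and group combinations to be so marked, and chance marks about 1 in 20 where samples are independent. Arrays here resemble each other in pairs, so that rate need not hold. The flu array with the same number, at 0.555, was also the lowest of its group.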

How the results depend on the processing

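The member count of 45 was 2 with a WT mean below 0.25 and 10 with a flu mean of at least 1.5, and the named count of 6 was 0 and 1. With arrays quantile normalised it was 56 and with a common median 61, both holding all 45 members. With medians over arrays it was 57, of which 40 were members, and AT5G63290 dropped out. Leaving out arrays singly or as pairs gave 40 to 69 members, the highest without WT arrays 3 and 4. AT5G63290 dropped out without WT array 1, WT array 2, both, or flu arrays 3 and 4, AT2G28540 without flu arrays 3 and 4, and AT1G51080 without WT arrays 5 and 6. The count of members whose arrays did not overlap was 43 as deposited and 43 quantile normalised, where 14.5% of all features had that order. Pairing by array number, a match that the labels do not state, flu was higher in each pair for 45, an order that the rule favours. Of 72 log2 differences of named members under alternatives that could change them, 67 moved by less than 1 SD. Many of the 72 leave out 1 of the 3 pairs of a group, which can hardly shift the difference by 1 SD. The 67 is therefore no measure of stability. The rule itself favours a positive sign, so no sign is counted here, and taking 6 arrays in place of pair means cannot change the difference. The 5 others were AT4G31930 with the floor at the 10th percentile (2.64) and AT2G28540 and AT5G11650 with the profile by feature number subtracted (0.97 and 1.20) or with that profile taken without the members (1.08 and 1.27). Leaving out pairs, AT5G63290 ranged most, from 0.77 without WT arrays 1 and 2 to 1.62 without flu arrays 1 and 2. Those arrays were its lowest in both genotypes, and each setting left them out of 1 genotype only. Why they were low, and the cause of the other shifts, were not tested. No feature's own background was used, so how far the WT values exceed it cannot be told.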
